A study of Mus musculus with 10 samples.

Results

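MicroRNA genes, small nucleolar RNA (snoRNA) genes and the host genes that carry them were taken from lists of gene starts enriched for ARID2 in mouse spermatogenic cells. ARID2 is the DNA-binding subunit that marks the PBAF chromatin remodeller. Members were the listed gene symbols that begin with Mir and a digit, Mirlet, Snora, Snord, Scarna or Snhg, and the gene Gas5. They were 102 of the 4095 gene names listed at postnatal day (P) 28 and 33 of the 2707 listed at P28.5, which made 114 of 4831 names in all. These names filled 178 of 11553 rows at P28 and 40 of 8514 rows at P28.5.

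CUT&RUN, in which an antibody tethers a nuclease to its target so that the chromatin fragments beside it are released and sequenced, was performed on CD1 mice with synchronized spermatogenesis. All groups shared the same regimen, in which WIN18,446, an inhibitor of retinoic acid synthesis, was given from P1 to P10 and retinoic acid at P11. Spermatogenic cells were released from the tubules with collagenase and trypsin, and at each age there were 2 ARID2 libraries, 2 BRG1 libraries made with different antibodies and 1 control library without primary antibody. The preparations were enriched for pachytene, diplotene and metaphase spermatocytes and were not sorted, so other germ cells and remaining somatic cells could contribute, and the lists hold no expression by which markers of the cells could be checked. The authors averaged the ARID2 libraries of an age before they clustered gene starts, and the lists give a position and a name with no signal, no strand and no read depth. No spread between replicates could therefore be taken from them, the lists give no depth behind a listed start, and the shares below carry 95% Wilson intervals that cover counting error over genes only.

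MicroRNAs are cut from hairpins within longer primary transcripts, first by Drosha in the nucleus and then by Dicer in the cytoplasm, and they repress messenger RNAs that pair with the seed near their 5′ end. The snoRNAs guide enzymes to other RNAs, with C/D box members directing ribose methylation and H/ACA box members directing pseudouridylation. Most mammalian snoRNAs and many microRNAs lie inside a host gene and are released from its transcript, so that the promoter that serves them belongs to the host. A small RNA gene in an annotation is thus often only the processed product, and its 5′ end need not be where transcription starts.

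Mature sequences were found in RefSeq (GRCm38.p6) for 87 of the 96 listed microRNA genes, which gave 138 mature sequences with 131 distinct seeds. Shown are microRNAs listed at both ages, with the seed (bases 2 to 8) in capitals. The first pair shares a seed and a locus, miR-9 is known from the nervous system, and the others come from hairpins that lie at or near the start of a longer gene.
miR-132-3p: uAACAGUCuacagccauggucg
miR-212-3p: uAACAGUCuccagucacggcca
miR-9-5p: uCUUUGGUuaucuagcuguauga
miR-484: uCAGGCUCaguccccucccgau
miR-207: gCUUCUCCuggcucuccucccuc
miR-707: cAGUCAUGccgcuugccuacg
miR-8092: gCCAUCUGggacucgcaggca
miR-5133: gCUGGAGCugcggcagcgcag

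Of the 131 seeds, 7 were shared by 2 listed genes. The seed of miR-132-3p and miR-212-3p was one of them, and the arms of Mir9-1 and Mir9-3 gave 2 more. The remaining shared seeds joined Mir330 with Mir6240, Mir7034 with Mir7071, Mir6911 with Mir7028, and Mir6899 with Mir7238.

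The snoRNAs listed at both ages were Snord49b and Snord55, both of the C/D class, and Snora26 was the H/ACA member listed at P28.5. Snord49b and Snora26 are shown as examples of the classes. In the genome sequence, capitals mark CTGA (box D) within the last 25 bases, or the ACA within the last 12 bases of an H/ACA RNA.
Snord49b, chr11:62603086-62603148, plus strand: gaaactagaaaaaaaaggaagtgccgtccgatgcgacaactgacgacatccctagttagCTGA
Snora26, chr5:74093530-74093650, plus strand: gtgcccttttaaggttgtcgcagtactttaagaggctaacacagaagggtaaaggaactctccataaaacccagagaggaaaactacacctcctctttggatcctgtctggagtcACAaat

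On the transcribed strand CTGA was found in 8 of 8 listed C/D box genes and in 93 of 94 annotated ones. The exact TGATGA of box C was found within the first 25 bases in 1 of 8 listed genes and in 45 of 94 annotated ones. The ACA was found in 4 of 5 listed H/ACA box genes and in 37 of 39 annotated ones, and Snora81 was the listed gene without these letters in that window.

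The annotation (RefSeq GRCm38.p6) held 1354 genes that match the symbols. At P28 102 of them, 7.53% (6.24 to 9.06), were listed, against 8.04% of all annotated genes and 16.4% of protein-coding genes. At P28.5 33 of them, 2.44% (1.74 to 3.4), were listed, against 5.32% of all annotated genes and 11.3% of protein-coding genes. The members' share at P28 was near that of all genes, and at P28.5 it was below it. Most members were microRNA genes, with 86 of 1180 listed at P28 and 27 at P28.5. Of 94 C/D box genes 8 and 2 were listed, and of 39 H/ACA box genes 4 and 1. None of the 9 small Cajal body RNA genes was listed at either age. The snoRNA host genes Gas5, Snhg1 and Snhg11 were 3 of 19 at P28, and Gas5 was the 1 listed at P28.5. Of 13 microRNA host genes, Mir22hg was listed at both ages and Mir9-3hg at P28.5.

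**Figure D1:**
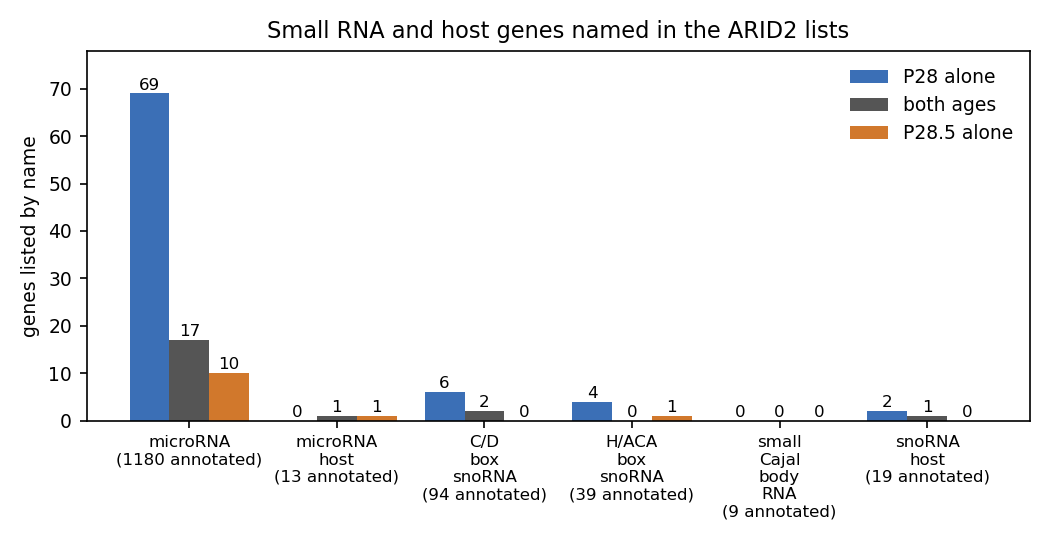
Number of genes (vertical axis) named in the ARID2 lists at 1 age or both, for each class of small RNA or host gene, with the number of annotated genes under each class. The bar of 69 microRNA genes named at P28 alone is the tallest, beside 17 at both ages and 10 at P28.5 alone.

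Between the ages, 21 members were shared, 81 were listed only at P28 and 12 only at P28.5. Of the P28 members 20.6% (13.9 to 29.4) were also listed at P28.5, against 48.1% of all P28 names. Of the P28.5 members 63.6% (46.6 to 77.8) were also listed at P28, against 72.8% of all P28.5 names. The 21 shared members were 17 microRNA genes, Mir22hg, Snord49b, Snord55 and Gas5. These shares go by name, and the low share of P28 members depended on that choice. By any listed position within 2000 bp of a member's 5′ end, 47 members were listed at both ages, of 104 at P28 and 63 at P28.5. The same count was not made for all names. The 2 lists share no library, and the age could not be told apart from the libraries made at it.

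A listed position could lie at the member's own end or elsewhere. Where a position named for a protein-coding gene fell at an end of that gene's own transcripts, it was nearly always the lower genomic coordinate, which is the 5′ end on the plus strand and the 3′ end on the minus strand. At P28 2733 of 5373 plus-strand positions were at the lower end and 0 at the upper end, and of 1061 minus-strand positions 259 and 1. At P28.5 these were 2404 and 0 of 4463, and 11 and 3 of 407, and the other positions were at no end of the named gene. For small RNAs these ends lie close together, the longest of the genes spanning 275 bp, so a row at either end marks the same place. At P28 63 of 102 members (61.8%, 52.1 to 70.6) had a row at an end of their own transcript, and at P28.5 28 of 33 did (84.8%, 69.1 to 93.3). Over all annotated members these were 4.65% and 2.07%, beside 10.8% and 8.49% of protein-coding genes listed in the same way under their own name.

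Of the 39 members without a row at their own end at P28, 7 were listed within 2000 bp of their gene and 32 only farther away. Mir3093 had the most rows, 30 at 21 positions at P28 and none at P28.5. They lay from 56 bp upstream, at 1 position, to 115 bp downstream of the start of Gm3764, a long noncoding RNA gene (chr3:88206673-88229959, plus strand) that contains Mir3093, and 8383 to 8554 bp before the hairpin. Mir9-1, in the same host, had 2 rows at P28, 5614 bp from its hairpin. Mir7028 had 14 rows at P28 at the 3′ end of the minus-strand gene Git2, 7830 to 7836 bp from its own hairpin. The rows of Mir148a, Mir29b-1, Mir6351, Mir6385, Mir6945, Mir7066, Mir7083 and Mir7088 also sat at 3′ ends of minus-strand genes. Mir129-1, Mir467h, Mir6408 and Mir6918 had a row at the 5′ end of a plus-strand gene, which for Mir129-1 was the noncoding Lnclep and for Mir6918 Nipsnap1. Of the 64 positions of P28 members without a row at their own end, 4 were at a plus-strand 5′ end, 21 at a minus-strand 3′ end and 39 at no annotated transcript end, 21 of which carried the name Mir3093.

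Among all listed positions 87.6% at P28 and 99.1% at P28.5 were 2000 bp or less from the 5′ end of some protein-coding or long noncoding RNA (lncRNA) gene. For member positions these shares were 53% (44.6 to 61.2) at P28 and 81.1% (65.8 to 90.5) at P28.5. The shares were not measured alike. A longer gene's own 5′ end counted among these ends, whereas that of a member did not, which by itself favours all positions. The 24 member positions listed at both ages were within that distance in 83.3% (64.1 to 93.3), and the 110 listed at P28 alone in 46.4% (37.3 to 55.6).

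The distance of a small RNA gene from the start of a longer gene was compared with its listing, for the 1322 small RNA genes, hosts left out, and rows at their own end. Of the 124 genes under 500 bp from such a start, 24 were listed at P28 (19.4%, 13.4 to 27.2) and 20 at P28.5 (16.1%, 10.7 to 23.6). Between 500 and 2000 bp the counts were 5 and 1 of 154. Between 2000 and 10000 bp they were 19 (4.55%) and 3 (0.718%) of 418, and beyond 10000 bp 12 (1.92%) and 1 (0.16%) of 626. At P28.5 the interval of the closest genes did not overlap those of the 3 farther groups, and at P28 it did not either. The closest genes were 20 of 25 listed at P28.5 and 24 of 60 listed at P28.

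**Figure D2:**
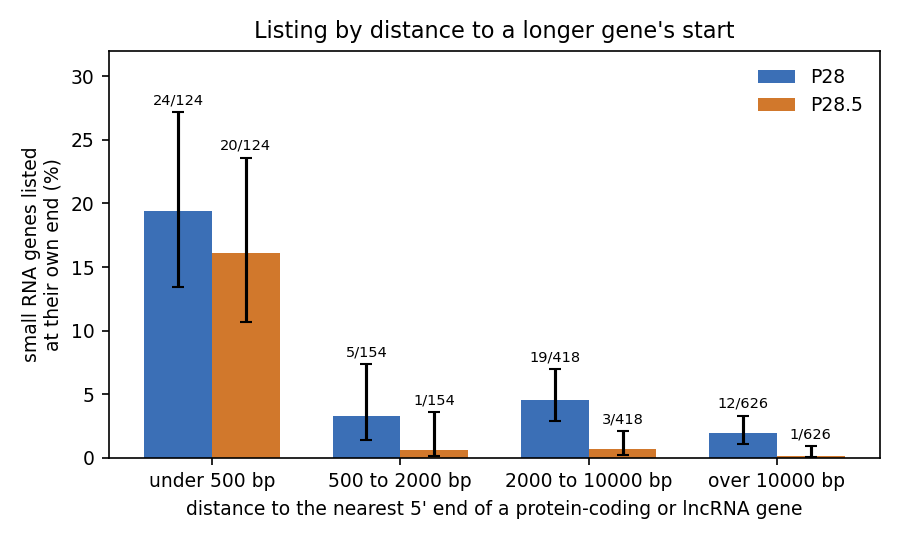
Share of small RNA genes with a row at their own end (vertical axis, percent) by distance from the nearest 5′ end of a protein-coding or lncRNA gene (horizontal axis, 4 classes), at P28 and P28.5. Bars start at 0, error bars are 95% Wilson intervals and the fractions give listed over annotated genes, with 24/124 and 20/124 in the class under 500 bp.

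The median distance was 209 bp for the 17 small RNA genes listed at both ages, 358 bp for the 8 listed at P28.5 alone, 3189 bp for the 43 listed at P28 alone and 9496 bp for the 1254 listed at neither. Of the 17, 14 lay under 500 bp from a longer gene's start. The exceptions were Mir132 and Mir212, and Mir9-3.

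Several of these hairpins overlapped an exon of their host at its start. Mir207 (chr4:40722917-40722995, plus strand) began 5 bp before the nearest start of Dnaja1, an HSP40 co-chaperone gene, which was itself listed with 3 rows at each age. Mir8092 (chr19:40894703-40894789, plus strand) began 2 bp before Zfp518a, a zinc finger gene with 3 rows at each age. Mir8098 (chr14, plus strand) began 17 bp before Wdfy2, a gene for an endosomal WD-repeat and FYVE-domain protein, and its name filled 6 rows at each age against 1 for Wdfy2. Mir707 lay in an exon of Akt1s1, which encodes the PRAS40 subunit of the mTORC1 kinase complex, 64 bp after its start, and Akt1s1 had 8 rows at P28 and 6 at P28.5. Mir3077 lay in an intron of Sap18, which encodes a protein of the Sin3 deacetylase complex, 235 bp after its start, and Sap18 had 1 row at each age. Each of these hosts is on the plus strand and was named beside its small RNA at both ages.

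The minus-strand hosts were not named. Mir5133 (chr9:62122518-62122594, minus strand) lay 15 bp after the start of Glce, the heparan sulphate epimerase gene, Mir7238 lay 21 bp after that of Ankrd10, and Mir1938 lay in an intron 378 bp after that of Ifrd1. All 3 microRNAs were listed at both ages and Glce, Ankrd10 and Ifrd1 at neither. Gm7008 was also listed, at both ages, 652 bp from the row of Mir1938. Hairpins that lay head to head with a minus-strand gene were also listed without that gene. Mir320 began 39 bp from the start of Polr3d, an RNA polymerase III subunit gene, Mir8102 193 bp from Pip4k2b, Mir5627 245 bp from Dnajb9, and Mir484 348 bp from Marf1, a meiosis regulator gene of the oocyte. None of these 4 partners was listed, and the 4 microRNA genes were listed at both ages. Starts this close share most of the window that the authors drew, which reached 2000 bp to each side of a start. ARID2 enrichment therefore cannot be assigned to the hairpin rather than the longer gene, here or for the other small RNAs close to a start.

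**Figure D3:**
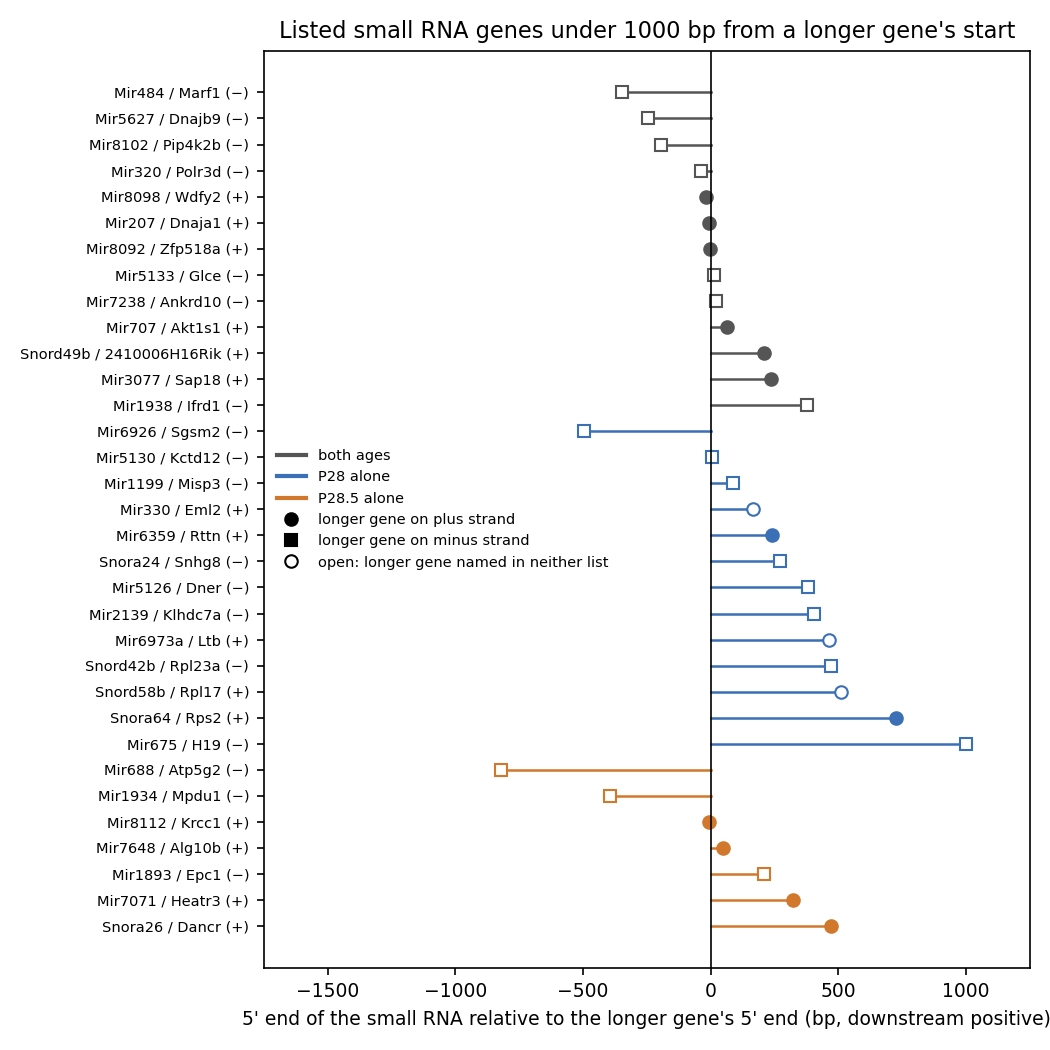
Position of the 5′ end of each listed small RNA gene relative to the 5′ end of its host or nearest longer gene (horizontal axis, bp, downstream positive), for 33 of the genes under 1000 bp. Circles and squares are longer genes on the plus and minus strand, and filled symbols mark those named at either age, which were 12 of 15 on the plus strand and 0 of 18 on the minus strand.

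Over all small RNA genes with a row at their own end, 41 of 60 at P28 and 16 of 25 at P28.5 lay inside a gene of the same strand. The host was named in the same list for 13 of 24 plus-strand hosts at P28 (54.2%, 35.1 to 72.1) and 10 of 10 at P28.5 (100%, 72.2 to 100). It was named for 0 of 17 minus-strand hosts at P28 (0 to 18.4) and 0 of 6 at P28.5 (0 to 39). The protein-coding background had the same direction, with 25.4% of plus-strand and 7.38% of minus-strand genes named at P28, and 19.9% and 2.78% at P28.5. Members differed less by strand, with 8.53% (6.72 to 10.8) of plus-strand and 6.34% (4.67 to 8.55) of minus-strand genes named at P28, and 3.25% (2.19 to 4.79) and 1.46% (0.772 to 2.76) at P28.5. The members' intervals overlapped between strands at both ages, which does not show equal shares, and the difference was not tested. As given above, 1 of 1061 positions named for minus-strand protein-coding genes at P28 and 3 of 407 at P28.5 were at a 5′ end of the gene. Whether the starts of minus-strand hosts entered the authors' clustering cannot be read from the lists.

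**Figure D4:**
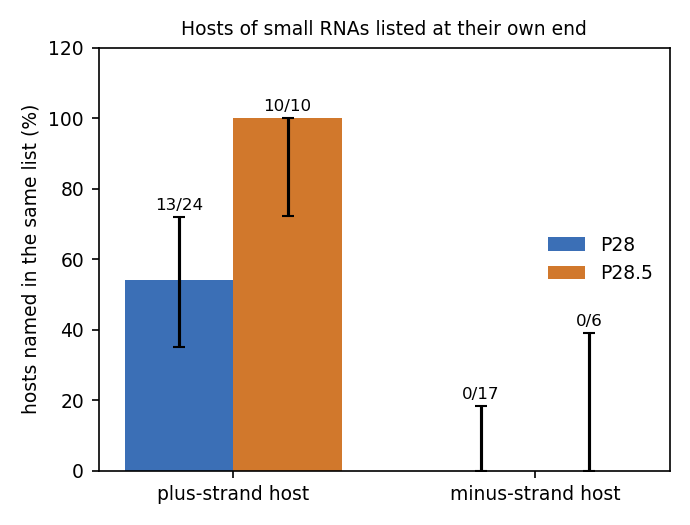
Share of host genes named in the same ARID2 list as the small RNA they contain (vertical axis, percent), for plus-strand and minus-strand hosts at P28 and P28.5, with 95% Wilson intervals and counts. Plus-strand hosts were named in 13/24 and 10/10 cases and minus-strand hosts in 0/17 and 0/6.

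Mir132 and Mir212, which share the seed shown above and are known from neurons and the endocrine system, were listed at both ages with 1 row each. They lie 294 bp apart in no longer annotated gene (Mir212 at chr11:75173388-75173478 and Mir132 at chr11:75173682-75173747, plus strand), and the nearest longer gene was Hic1, a transcriptional repressor gene on the other strand, 3133 and 3427 bp away. Each was thus the nearest listed row of the other. Mir9-3 (chr7:79505264-79505353, plus strand) lay in an intron of Mir9-3hg, 5238 bp after its start, and had 1 row at each age. Mir9-3hg itself was named at P28.5 alone, at a position 10171 bp from the hairpin. Mir193a was also named at both ages. Its row at the start of the noncoding Gm11205, 7399 bp upstream, was present at both ages, and its row at the hairpin at P28 alone. Mir7012 was named at both ages at a position 104 bp from the start of Gatad2b, a NuRD complex gene, and 23073 bp from its own hairpin, where it had no row.

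At P28.5 alone, Mir8112 lay 6 bp before Krcc1, Mir7648 49 bp after the start of Alg10b and Mir7071 321 bp after that of Heatr3. All 3 of these plus-strand genes were named beside their microRNA. Mir1934 lay head to head with Mpdu1 (394 bp), Mir688 lay 819 bp upstream of Atp5g2 on the same strand, and Mir1893 lay 211 bp after the start of Epc1, a gene of the NuA4 acetyltransferase complex. These 3 minus-strand genes were not named. Mir344h-1 was the exception, 124082 bp from any longer gene's start. Mir297c, Mir6769b and Mir6899 had rows only away from their own hairpins.

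At P28 alone, Mir5130 lay 5 bp after the start of Kctd12, Mir1199 87 bp after that of Misp3, and Mir330 168 bp after that of Eml2. Mir675 (chr7:142577064-142577147, minus strand) lay in an exon of H19, the imprinted noncoding RNA gene from which it is processed, 999 bp after its start. Mir206, a muscle microRNA, lay in an intron of the noncoding Lincmd1, which was listed 9128 bp upstream. Mir204 lay in an intron of Trpm3, 57521 bp after its start, with no other listed name nearer than 390621 bp. The microRNA genes of this age whose listed neighbour was closest were Mir6359, 240 bp from Rttn, Mir6240, 1694 bp from 4930519G04Rik, Mir6913, 1919 bp from Dohh, and Mir7048, 3757 bp from Zfp526. Mir6972, Mir206, Mir6911, Mir7-1, Mir7234 and Mir6385 followed at 6485 to 14282 bp.

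Sequence around the small RNA was a feature that the symbols did not use. CpG density was scored as CpG observed over CpG expected in a window reaching 500 bp to each side of the small RNA's 5′ end, where a ratio of 0.6 or more marks a CpG-rich region. All 17 genes listed at both ages reached 0.6 (median 0.804, range 0.724 to 1.05). Of the genes listed at P28.5 alone 7 of 8 did (median 0.708), of those at P28 alone 8 of 43 (18.6%, median 0.281) and of those at neither age 74 of 1254 (5.9%, median 0.239). For comparison, 43.3% of protein-coding genes reached 0.6 at the start of the gene. Within the class under 500 bp from a longer gene's start, 26 of 30 listed genes (86.7%) and 44 of 94 unlisted genes (46.8%) reached it. The loci listed at both ages far from a longer gene's start were CpG-rich too, with ratios of 0.765 at Mir132, 0.794 at Mir212 and 0.828 at Mir9-3. Distance and CpG content move together, and their separate parts in the listing were not tested.

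**Figure D5:**
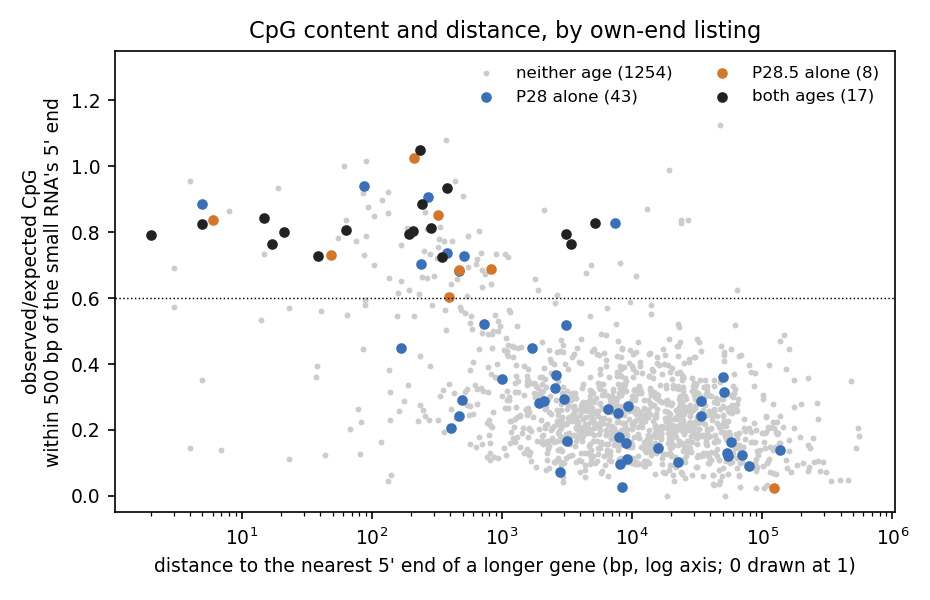
Observed over expected CpG within 500 bp of the 5′ end of each small RNA gene (vertical axis) against its distance from the nearest longer gene's 5′ end (horizontal log axis, bp), coloured by the ages at which the gene was listed at its own end. The dotted line is at 0.6, and the 17 genes listed at both ages lie above it.

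The hairpins themselves followed the same order. Median GC content was 69% for the 13 hairpins with a sequence that were listed at both ages, 65.7% for 6 at P28.5 alone, 52.5% for 32 at P28 alone and 51.5% for 912 at neither age. Unlisted hairpins under 500 bp from a longer gene's start had 58.8% (n = 79). Mir9-3, at 45.6%, had the lowest value of those listed at both ages, and Mir5627, at 77%, the highest.

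Among the snoRNA genes, Snord49b lay in an intron of the noncoding host 2410006H16Rik, 209 bp after its start, and the host had 1 row at each age. Snora26 lay in an exon of the noncoding Dancr, 470 bp after its start. Dancr was named at both ages, and Snora26 at P28.5 alone. At P28 alone, Snora24 lay in an exon of Snhg8 (270 bp), Snord42b in an intron of Rpl23a (471 bp), Snord58b in an intron of Rpl17 (510 bp) and Snora64 in an intron of Rps2 (726 bp). Rps2 was named at both ages, and Snhg8, Rpl23a and Rpl17 were not.

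Other snoRNA genes listed at P28 lay farther from a start. Snord118, the U8 RNA needed for large ribosomal subunit maturation, lay in no longer gene, 2617 bp from the start of Tmem107, which was named at both ages. Snora81 lay 3007 bp into Eif4a2, a translation initiation factor gene with 11 rows at each age. Snord88a lay 2821 bp into 2410002F23Rik (12 rows) and Snora2b 7810 bp into Kansl2 (no row). Snord85 had 1 row, at its own end. Snord65 had 2 rows and none at its own end, with 1 at the 3′ end of Lrrc75a. At P28.5 none of the members in this paragraph was named, although Eif4a2 and Tmem107 still were.

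Gas5, host of several C/D box snoRNAs and known for its own noncoding RNA, had 1 row at the same position at both ages. It marked the shorter annotated form, which starts at 161035166 on chromosome 1, plus strand, 302 bp from a start of the minus-strand gene Zbtb37. Snhg1 was listed at P28, at its 5′ end on chromosome 19, 118 bp from the minus-strand Slc3a2, an amino acid transporter subunit gene. Zbtb37 and Slc3a2 fell in the same head-to-head arrangement as the partner of Mir320. The sequence in front of these 3 members is shown in the direction of their transcription, with up to 60 bases before the annotated 5′ end and 20 bases from it, of which the first 10 are in capitals. For Mir320 the stretch begins at the base after the start of Polr3d.
Gas5, chr1:161035106-161035185: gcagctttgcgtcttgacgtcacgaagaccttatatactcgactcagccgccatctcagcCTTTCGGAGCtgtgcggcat
Snhg1, chr19:8723427-8723506: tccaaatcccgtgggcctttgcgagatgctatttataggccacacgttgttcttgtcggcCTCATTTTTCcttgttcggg
Mir320, chr14:70443472-70443529: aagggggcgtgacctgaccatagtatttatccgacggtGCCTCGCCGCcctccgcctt

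The listed start of Gas5 opens with a C followed by a run of pyrimidines, the arrangement that defines a 5′ terminal oligopyrimidine tract. Counting a C and at least 4 further pyrimidines from the annotated start, 3 of the 14 hosts of listed snoRNAs and listed snoRNA host genes had such a 5′ end (Gas5, Snhg8 and Kansl2), against 5.61% of 34411 protein-coding and lncRNA genes. Snhg1 opens with a C and 2 further pyrimidines and fell short of the count. A gene counted if any of its annotated 5′ ends matched, for the 14 genes and for all genes alike. Kansl2 matched only at 98534770, which is not the start from which Snora2b was measured. A match describes these letters at the annotated starts, and the difference between the shares was not tested.

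Snhg11 had 2 rows at P28, 70 and 75 bp before its annotated start. The other snoRNA hosts were not named, but listed positions of a neighbour lay close to 4 of them. Snhg9 starts 98 bp from a listed position of Rps2 and Snhg10 339 bp from one of Glrx5, at both ages. At P28 Snhg18 starts 80 bp from a listed position at Sema5a and Snhg8 399 bp from the row of Snora24. Snhg12, Snhg15, Snhg16, Snhg17, Snhg20, Snhg3, Snhg5, Snhg6, Snhg7, Snhg7os and Snhg14 had no listed position within 10000 bp at either age, and Snhg4 had one at 8748 bp at both ages.

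Mir22hg, the host of the microRNA Mir22, was listed at both ages at its own 5′ end (chr11:75461539-75466690, plus strand), and Mir22 itself, 2177 bp downstream, was not. Of 45 genes in well-studied families (let-7, miR-17 to miR-92, miR-106b to miR-25, miR-15 and miR-16, miR-34, miR-449, miR-290 to miR-295, and Mir21a, Mir22, Mir155, Mir191 and Mir425) 0 were named at either age, a count of 0 that allows a share of up to 6.67%. For comparison, 7.29% of all annotated microRNA genes were named at P28 and 2.29% at P28.5, so few of the 45 would be named at those shares. Of the 45, Mir191 and Mir425 came closest to a listed position. They lie in the plus-strand gene Dalrd3, and a listed position lay 823 bp from Mir191 at both ages and 1115 and 1281 bp from Mir425 at P28 and P28.5. Mir34b and Mir34c, which belong to the miR-34 and miR-449 group known from male germ cells, lay 246721 and 246186 bp from the nearest listed position at both ages. None of the 94 X-linked members was listed, which allows a share of up to 3.19%. The lists named 1 of the 2500 annotated X-linked genes at P28 (0.04%) and 2 at P28.5 (0.08%), and the members' count was near that background.

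The neighbourhood of a member was read from the nearest listed row of another name. At P28 14 of 102 members (13.7%, 8.36 to 21.7) had one within 2000 bp, against 5.96% of all listed names, and at P28.5 13 of 33 did (39.4%, 24.7 to 56.3), against 9.68%. The median distance to that row was 58661 bp at P28 and 18973 bp at P28.5, against 99816 and 112753 bp for all names. No other name was listed within 100000 bp of 36 members (35.3%) at P28 and 8 (24.2%) at P28.5, against 50% and 52.7% of all names. At P28 20 of the 36 had a row at their own end, namely Mir193a, Mir204, Mir2139, Mir216b, Mir21b, Mir3067, Mir320, Mir344b, Mir344d-2, Mir3962, Mir5126, Mir5130, Mir5133, Mir5626, Mir6350, Mir6372, Mir6388, Mir6391, Mir7233 and Mir9-3. The other 16, named away from their own hairpins, were Mir129-1, Mir148a, Mir29b-1, Mir3471-2, Mir467h, Mir568, Mir598, Mir6341, Mir6351, Mir6918, Mir700, Mir7009, Mir7028, Mir7232, Mir744 and Mir8104. The largest gap was 2578963 bp, at Mir8104. At P28.5 the 8 were Mir320, Mir484, Mir5133, Mir688, Mir1893, Mir344h-1, Mir297c and Mir6899. Mir320 and Mir5133 stood alone at both ages, and both lie at the start of a minus-strand gene.

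Genes that make or carry these RNAs were counted in lists written from gene function. Of 20 genes of microRNA biogenesis and function, 9 (45%, 25.8 to 65.8) were named at P28 and 7 (35%, 18.1 to 56.7) at P28.5. The shares of protein-coding genes were 16.4% and 11.3%. By any listed position within 2000 bp, 6 (30%, 14.5 to 51.9) and 7 of the 20 were listed. Named at both ages were 5. These 5 were Tarbp2, a partner of Dicer, the 3 GW182 genes Tnrc6a, Tnrc6b and Tnrc6c, which act with Argonaute, and Tut4, a uridylyl transferase listed as Zcchc11, whose row at P28 lay 18863 bp from a start and at P28.5 16 bp. Drosha and Xpo5, which exports the precursor, were named at P28 only, and Ran and Adar at P28.5 only. Rows of Dicer1 and Ago3 at P28 were 11146 and 3342 bp away from any annotated start of those minus-strand genes. Of 21 genes of snoRNA particles, 10 (47.6%, 28.3 to 67.6) were named at P28 and 5 (23.8%, 10.6 to 45.1) at P28.5. The interval at P28.5 covered the protein-coding share of 11.3%. By any listed position within 2000 bp, 10 and 6 of the 21 were listed. The 5 genes named at P28.5 were named at both ages. They were Fbl, the methyltransferase of C/D box particles, its partners Nop56 and Nop58, the H/ACA protein gene Nhp2, and the assembly factor gene Pih1d1. Nop10, Naf1, Nufip1, Ruvbl1 and Nolc1 were named at P28 alone, with the rows of Naf1 45929 bp or more from its start. Ruvbl2, on the minus strand, was not named and lay 123 bp from a listed row of Gys1 at both ages.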

How the data were processed

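CUT&RUN libraries of ARID2, BRG1 and a control without primary antibody were made from P28 and P28.5 testes. The authors aligned reads to mm10 with Bowtie2, made tracks with deepTools relative to the control, averaged the 2 ARID2 libraries of each age and clustered RefSeq gene starts. The deposited values used here are other than counts or signal: genomic positions, each with a gene symbol, for the ARID2-enriched cluster of each age. The BRG1 libraries were not analysed here, and the control entered only through the authors' ratio.

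Symbols of members and of the background were matched as written to RefSeq GRCm38.p6 (49598 genes, 119657 transcripts), which the positions fit. Among the genes that make or carry these RNAs, Tut4 was counted under the listed symbol Zcchc11, a match that the background did not allow. Position, host, strand, distance, CpG content and sequence came from that annotation and genome (Python 3.11.15, pandas 2.3.3, pysam 0.24.0, samtools 1.23.1, matplotlib 3.10.9). Near meant within 2000 bp, which reaches the edge of the window the authors drew around each start. Results are counts and shares with 95% Wilson intervals, and a share of 0 allows 3 counts. No significance test was made, since the lists hold no values per replicate. The interval code was tested on simulated counts and the nearest-row code on sampled annotated genes. Members, lists and comparisons were chosen with earlier results of these data known. Named were the listed snoRNA genes and hosts, microRNA genes listed at both ages, those closest to or farthest from other listed names, and fixed families. Further names were chosen after their values were seen. Some host genes and 1 sequence are not reported here.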

Additional observations from a re-analysis of the deposited data

How the results depend on the processing

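Of 24 alternatives, 17 left their result within its interval or within 1.5 times its count, and 7 moved it. Counting any listed position within 2000 bp of a member's 5′ end, whatever its name, gave 63 members in place of 33 at P28.5, 47 in place of 21 at both ages, and shares of 6.09% of plus-strand and 2.93% of minus-strand members at P28.5, in place of 3.25% and 1.46%. It gave 104 in place of 102 at P28. A distance of 500 bp in place of 2000 bp left 9 of 14 members with a listed neighbour at P28. Over every row in place of every name, the median distance to a neighbour was 36292 bp at P28 and 10171 bp at P28.5. The first moves came with a wider definition, which admits rows named for neighbouring genes. The move from 14 to 9 members came with a shorter distance, and the moved medians with rows as the unit in place of names. Which rows admitted the added members was not counted. An alternative chosen after seeing the data, 5′ ends of protein-coding genes only, gave 23.4% at P28 and 19.1% at P28.5 for small RNA genes under 500 bp from a start, in place of 19.4% and 16.1%. Leaving out a library was not possible with these lists, for which the authors had averaged the replicates. No paired analysis was possible because the lists hold no values per library. The lists give no depth behind a listed start.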
